A study of Mus musculus with 11 samples.

Results

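The 10 genes described here encode enzymes that use glutathione, reduce thioredoxin or remove peroxides, superoxide, quinones and haem in mouse microglia: Gstm1, Gstm2, Gsta4, Gpx1, Gpx4, Hmox1, Nqo1, Prdx1, Sod1 and Txnrd1. They were taken by name, with no threshold, from a table of 14739 genes, and all 10 were among the 13223 genes tested, those whose normalized count averaged at least 10 over the libraries. They were chosen by name with measured values of these samples in view: the counts of Csf1r+/- and wild-type mice, in which Gstm2 and Gsta4 were already known to be higher in mice with a single Csf1r copy. The comparison of Csf1r+/- with wild-type mice is therefore given as a description, with no p-value. The other comparisons with wild-type mice reuse the same wild-type libraries. Low wild-type values could favour both the choice and these differences, so their p-values are not independent of the choice.

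Glutathione is a small peptide whose thiol group donates electrons to peroxides and other reactive molecules. Glutathione transferases (Gst genes) join it to such molecules, glutathione peroxidases (Gpx genes) spend it on peroxides, and glutathione reductase (Gsr) restores it with electrons from NADPH. The thioredoxin and peroxiredoxin system works in parallel, and many of these genes are targets of NRF2, the transcription factor encoded by Nfe2l2, which binds antioxidant response elements in their regulatory DNA. Microglia make oxidants when activated and carry these enzymes to limit damage to themselves and to neighbouring cells.

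Tmem119+ cerebral microglia of aged C57BL/6 mice had been sorted, and their RNA was sequenced in bulk. The 11 libraries formed 4 groups: 3 from Csf1r+/- mice (Csf1r_het), 2 from Csf1r+/-; Csf2+/- mice (Dhet), 3 from Csf2+/- mice (Csf2_het) and 3 from wild-type mice (WT). The mice were 21 months old, apart from Csf1r_het replicate 1 at 20 months and Csf1r_het replicate 2 and Dhet replicate 2 at 24 months. Microglia need signals through the CSF1 receptor, the product of Csf1r, to survive, and GM-CSF is the cytokine that Csf2 encodes. No label says whether mice were littermates, what sex they were or how libraries were batched.

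Csf1r ran between 17017 and 40567 normalized counts in the libraries with a deleted copy and between 41261 and 93319 in those with both copies, so the ranges did not overlap. Depth ran from 21037819 to 53081638 reads, and haemoglobin genes took 16.1% to 58.8% of them. All 8 microglia markers were present in the table, and their summed level was 226681 to 291862 normalized counts in Csf1r_het, 307092 to 354603 in Dhet, 350288 to 458206 in Csf2_het and 117843 to 218572 in WT libraries. The part of that gap in the differences below was not tested. WT replicate 2 stood apart, with 5432 normalized counts of Tmem119 against 17695 and 19084 in the other WT libraries, and 80258 of the monocyte gene Plac8 against 21109 and 8772. Its markers did not all move one way: among the WT libraries it was lowest in 6 and highest in 2 of the 8 microglia markers (Cx3cr1 and Aif1), and highest in 5 and lowest in 3 of the 8 monocyte markers (Chil3, Ly6c1 and Cd14). Dhet replicate 2 was the only library with more than a trace of the Y-linked Ddx3y (717 normalized counts, at most 16.3 in each other library), and Xist was at 4.02 there and at least 3011 elsewhere. With bulk RNA, fewer cells of a type and less RNA per cell cannot be told apart, and this holds for every level below.

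Counted per kilobase of the principal transcript, each of the 10 genes lay above at least 61.7% of the genes tested. Gpx1, the cytosolic glutathione peroxidase, averaged 64401 normalized counts per kilobase over the 11 libraries, more than 99.6% of the genes tested. Gpx4, which reduces lipid peroxides in membranes, averaged 14277 per kilobase, Prdx1 averaged 8110 and Sod1 averaged 5448. Gstm1 averaged 3040 and Gsta4 2119 per kilobase. At the low end, Gstm2 averaged 536, Nqo1 420 and Txnrd1 198 normalized counts per kilobase, and Txnrd1 was the lowest of the 10. Hmox1 lay between, at 779 per kilobase.

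**Figure D1:**
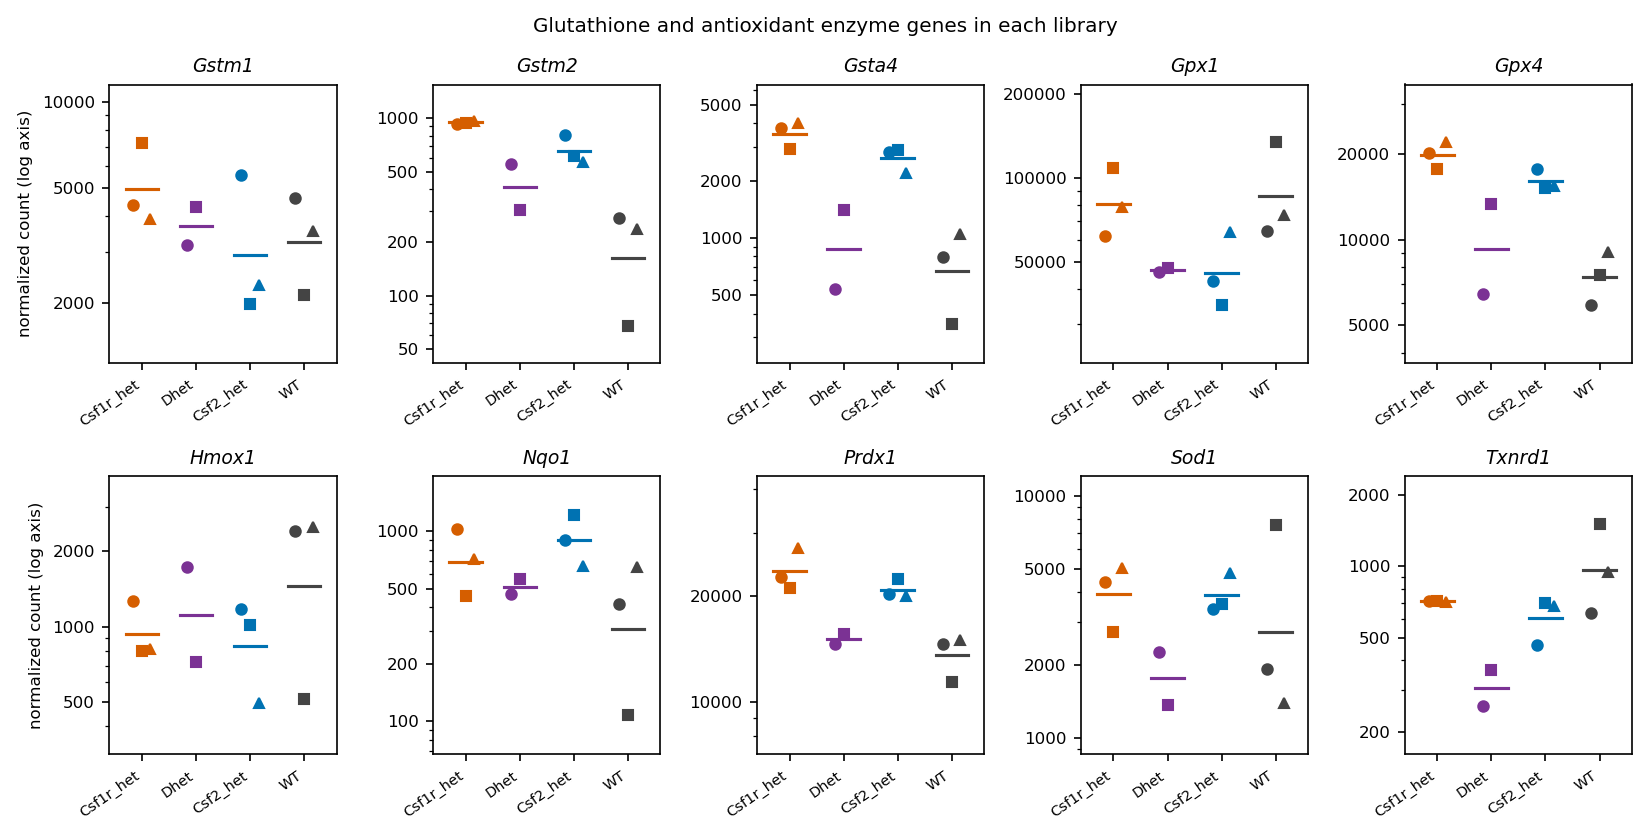
Normalized counts of the 10 genes in each of the 11 libraries, on log axes, by genotype group; circles, squares and triangles are replicates 1, 2 and 3, and lines are geometric means. Gstm2 was 932 to 971 in Csf1r_het and 67.0 to 275 in WT libraries, while Gstm1, Hmox1 and Sod1 overlapped between those groups.

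The transferase genes Gstm2 and Gsta4 had the largest differences of the 10 genes in both single heterozygous groups. Gstm2 (chr3:107981702-107986453, minus strand, mm10) encodes a mu-class transferase. Gstm2 had 932, 947 and 971 normalized counts in Csf1r_het libraries, 556 and 305 in Dhet, 803, 611 and 571 in Csf2_het, and 275, 67.0 and 236 in WT libraries. All libraries of the 3 heterozygous groups lay above all WT libraries, the Csf1r_het libraries were nearly equal, and WT replicate 2 was far below the other WT libraries. The difference from WT was 2.53 ± 0.51 (log2 of the normalized count + 1, SE) in Csf1r_het, a 5.78-fold higher level. It was 1.99 ± 0.51 in Csf2_het, where the limma adjusted p of 0.0507 missed the threshold of 0.05, and 1.33 ± 0.57 in Dhet (limma adjusted p = 0.468). Without WT replicate 2 these differences were 1.89 in Csf1r_het, 1.36 in Csf2_het and 0.69 in Dhet. The Csf2_het difference passed without WT replicate 3 (limma adjusted p = 0.0460) and without Csf1r_het replicate 2 (0.0482). It also passed with a pseudocount of 8 (0.0434), median centring (0.0352) and DESeq2 (adjusted p = 0.00547). It missed the threshold when any other single library was left out (limma adjusted p up to 0.186). With edgeR, scaling to reads outside haemoglobin genes, a replicate block or only the groups compared it missed too. The same held without the libraries whose mice differed in age from WT.

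Gsta4 (chr9:78182774-78209349, plus strand, mm10) encodes the alpha-class transferase that conjugates 4-hydroxynonenal, a product of lipid peroxidation. Gsta4 had 3758, 2934 and 3992 normalized counts in Csf1r_het libraries, 541 and 1402 in Dhet, 2841, 2907 and 2194 in Csf2_het, and 798, 354 and 1055 in WT libraries. Both single heterozygous groups lay wholly above WT and above Dhet, whereas Dhet and WT libraries were interleaved. In Csf1r_het Gsta4 was 5.28-fold higher than in WT (log2 difference 2.40 ± 0.43, SE). Gsta4 rose in Csf2_het, by 1.97 ± 0.43 on the log2 scale (3.93-fold, limma adjusted p = 0.0250, higher in 3 of 3 libraries). The WT libraries of this test were among those in view when Gsta4 was chosen. In Dhet the difference from WT was 0.38 ± 0.48 (limma adjusted p = 0.816), and Dhet against Csf2_het gave -1.59 ± 0.48 (limma adjusted p = 0.410).

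The rise of Gsta4 in Csf2_het did not pass the threshold in every refit. The limma adjusted p was 0.0690 without WT replicate 1, 0.103 without Csf2_het replicate 1, 0.0957 without Csf2_het replicate 2 and 0.0605 without Csf2_het replicate 3, and it was 0.0947 when libraries were scaled to reads outside the haemoglobin genes. With the 21-month libraries alone it was 0.0615, and with only the groups compared 0.0601. Without WT replicate 2 the rise was 1.52 with a limma adjusted p of 0.0428.

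Gstm1 (chr3:108012255-108017973, minus strand, mm10), the neighbour of Gstm2 on chromosome 3 and the more abundant of the pair, did not follow it. Gstm1 had 4377, 7201 and 3909 normalized counts in Csf1r_het libraries, 3181 and 4309 in Dhet, 5573, 1975 and 2299 in Csf2_het, and 4617, 2120 and 3541 in WT libraries. Every group overlapped every other. Its difference from WT was 0.61 ± 0.42 in Csf1r_het, 0.18 ± 0.47 in Dhet (limma adjusted p = 0.926) and -0.15 ± 0.42 in Csf2_het (limma adjusted p = 0.904, with a positive sign under edgeR, 0.027). Per 100 normalized counts of Gstm1 there were 13.1 to 24.8 of Gstm2 in Csf1r_het libraries, 17.5 and 7.09 in Dhet, at least 14.4 in Csf2_het and 3.16 to 6.68 in WT libraries, so every heterozygous library had the higher share.

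Because these transferases are close copies, the ends of their coding sequences are shown to make visible how reads can tell them apart. Both coding sequences hold 654 bases and align with 0 gaps, with 562 identical bases (85.9%) and 92 that differ. In the window with the most differences, bases 592 to 651, there are 18, which stand in capitals (GENCODE vM21, coding strand, chromosome 3).
Gstm1: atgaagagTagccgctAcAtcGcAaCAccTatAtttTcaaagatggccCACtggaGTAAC
Gstm2: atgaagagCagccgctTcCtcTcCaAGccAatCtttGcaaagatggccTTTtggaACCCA
Of the 31-base words in the transcripts of Gstm1, 28.8% occur in another gene, mostly the pseudogene Gstm2-ps1, and of those of Gstm2, 12.2% do. Reads that hold only shared words can be split between copies in the count, so the levels of both genes carry that uncertainty, while Gsta4 shares 0% of its words.

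The glutathione peroxidase genes Gpx4 and Gpx1 had different orders of groups. Gpx4 (chr10:80047166-80056439, plus strand, mm10) had 20276, 17684 and 21996 normalized counts in Csf1r_het libraries, 6450 and 13401 in Dhet, 17761, 15175 and 15424 in Csf2_het, and 5909, 7508 and 9021 in WT libraries. The single heterozygous groups lay wholly above WT, and the Dhet libraries stood at different heights, with replicate 1 inside the WT range. Gpx4 differed from WT by 1.43 ± 0.33 in Csf1r_het (2.70-fold), by 1.13 ± 0.33 in Csf2_het (2.18-fold, limma adjusted p = 0.0809; DESeq2 adjusted p = 0.0116) and by 0.34 ± 0.36 in Dhet (limma adjusted p = 0.786). Of the 31-base words of Gpx4, 38.9% also occur in another gene, nearly all in the pseudogene Gpx4-ps2, so its count is uncertain to that extent.

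Gpx1 (chr9:108338903-108340343, plus strand, mm10) had 61978, 108906 and 78934 normalized counts in Csf1r_het libraries, 46200 and 47882 in Dhet, 43022, 35080 and 64244 in Csf2_het, and 64702, 134747 and 73721 in WT libraries. All Dhet and Csf2_het libraries lay below all WT libraries, the highest Csf2_het library by a narrow margin, and Csf1r_het libraries overlapped WT. The differences from WT were -0.09 ± 0.47 in Csf1r_het, -0.88 ± 0.53 in Dhet (limma adjusted p = 0.593) and -0.91 ± 0.47 in Csf2_het (limma adjusted p = 0.356), so no difference passed. Per 100 normalized counts of Gpx1 there were 16.2 to 32.7 of Gpx4 in Csf1r_het libraries, 14.0 and 28.0 in Dhet, 24.0 to 43.3 in Csf2_het and 5.57 to 12.2 in WT libraries. This ratio was higher in all 8 heterozygous libraries than in all WT libraries.

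In the thioredoxin and peroxiredoxin system, Prdx1 (chr4:116685544-116700822, plus strand, mm10), a thiol peroxidase that reduces hydrogen peroxide, varied least within groups of the 10 genes, with a pooled SD of 0.16 on the log2 scale. Prdx1 had 22623, 21048 and 27266 normalized counts in Csf1r_het libraries, 14574 and 15627 in Dhet, 20240, 22250 and 20013 in Csf2_het, and 14641, 11393 and 14985 in WT libraries. Every single heterozygous library lay above every Dhet and WT library. The differences from WT were 0.79 ± 0.29 in Csf1r_het, 0.15 ± 0.32 in Dhet (limma adjusted p = 0.905) and 0.62 ± 0.29 in Csf2_het (limma adjusted p = 0.295).

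Txnrd1 (chr10:82833951-82897712, plus strand, mm10) encodes the cytosolic thioredoxin reductase, which passes electrons from NADPH to thioredoxin. Txnrd1 had 717, 717 and 705 normalized counts in Csf1r_het libraries, 257 and 366 in Dhet, 464, 699 and 680 in Csf2_het, and 635, 1509 and 949 in WT libraries. Dhet libraries were the lowest of all 11 and overlapped no other group, and WT replicate 2 was the highest. The differences from WT were -0.44 ± 0.38 in Csf1r_het, -1.66 ± 0.43 in Dhet (limma adjusted p = 0.152; DESeq2 adjusted p = 0.0152) and -0.68 ± 0.38 in Csf2_het (limma adjusted p = 0.398). Without WT replicate 2 the difference in Dhet was -1.34.

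Sod1 (chr16:90220742-90226322, plus strand, mm10) encodes the copper and zinc superoxide dismutase. Sod1 had 4385, 2741 and 5010 normalized counts in Csf1r_het libraries, 2265 and 1367 in Dhet, 3407, 3579 and 4810 in Csf2_het, and 1920, 7541 and 1392 in WT libraries. Dhet libraries lay below all libraries of both single heterozygous groups, and WT replicate 2 was higher than any other library while the other WT libraries were as low as Dhet. Its differences from WT were 0.53 ± 0.52 in Csf1r_het, -0.63 ± 0.58 in Dhet (limma adjusted p = 0.736) and 0.51 ± 0.52 in Csf2_het (limma adjusted p = 0.683). Without WT replicate 2 they were 1.26 in Csf1r_het, 0.11 in Dhet and 1.25 in Csf2_het.

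Among the stress-response enzymes, Nqo1 (chr8:107388225-107403206, minus strand, mm10) reduces quinones. Nqo1 had 1027, 455 and 714 normalized counts in Csf1r_het libraries, 468 and 558 in Dhet, 901, 1222 and 661 in Csf2_het, and 414, 108 and 652 in WT libraries. All Csf2_het libraries lay above all WT libraries, though the lowest of them and the highest WT library were nearly equal. Nqo1 differed from WT by 1.17 ± 0.58 in Csf1r_het, by 0.73 ± 0.65 in Dhet (limma adjusted p = 0.727) and by 1.54 ± 0.58 in Csf2_het (limma adjusted p = 0.182). Without WT replicate 2 the difference was 0.42 in Csf1r_het, -0.024 in Dhet and 0.79 in Csf2_het.

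Hmox1 (chr8:75093621-75100589, plus strand, mm10) encodes haem oxygenase, which breaks down haem. Hmox1 had 1265, 800 and 816 normalized counts in Csf1r_het libraries, 1725 and 723 in Dhet, 1173, 1018 and 496 in Csf2_het, and 2412, 512 and 2499 in WT libraries. Each group overlapped the others, since WT replicate 2 was among the lowest libraries and the other WT libraries were the highest. The differences from WT were -0.63 ± 0.59 in Csf1r_het, -0.38 ± 0.65 in Dhet (limma adjusted p = 0.873) and -0.79 ± 0.59 in Csf2_het (limma adjusted p = 0.547). Without WT replicate 2 they were -1.39 in Csf1r_het, -1.14 in Dhet and -1.55 in Csf2_het. Hmox1 also had the widest pooled spread within groups of the 10 genes, an SD of 0.87 on the log2 scale.

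**Figure D2:**
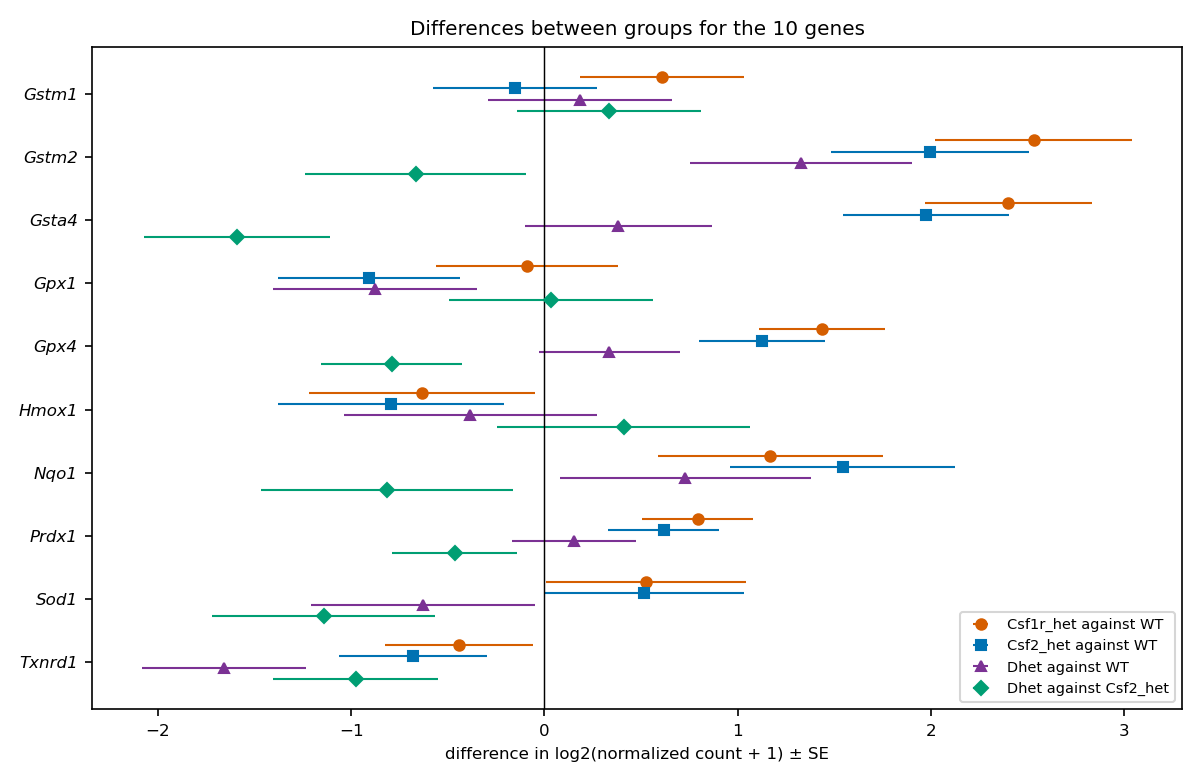
Differences between groups in log2(normalized count + 1) for the 10 genes, with SE bars from the limma fit; colours and shapes mark the 4 comparisons. Gsta4 was 2.40 higher in Csf1r_het and 1.97 higher in Csf2_het than in WT, and 1.59 lower in Dhet than in Csf2_het.

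Csf2_het against WT shares the WT libraries with the comparison of Csf1r_het, so its counts are not independent of the choice of genes. Taken as a set there, 1 of the 10 genes was called, Gsta4, where 3.65% of all genes tested were called in either direction. For 6 of the 10 the Csf2_het and WT libraries did not overlap, where 25.2% of all genes did not. Of these, Gpx1 lay wholly below WT and 5 lay wholly above it, Gstm2, Gsta4, Gpx4, Nqo1 and Prdx1. The median difference of the 10 genes was 0.56 on the log2 scale, and that of all genes tested was -0.02.

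In Csf1r_het against WT, 4 of the 10 lay wholly above WT, where 8.61% of all genes did. That comparison helped to choose the genes, and this count is a description of the choice.

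In Dhet against WT, limma called 0 of the 10 genes, where 0.529% of all genes were called, and 2 of the 10 had an unadjusted p under 0.05, Gstm2 and Txnrd1, where 10.1% of all genes had. The edgeR test called 0 of the 10 and DESeq2 called 1, Txnrd1, where DESeq2 called 2.54% of all genes. Only Gstm2 lay wholly above WT, where 13.5% of all genes did, and Gpx1 and Txnrd1 lay wholly below, where 12.6% did. The median difference of the 10 genes was 0.17, and that of all genes was 0.02.

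Loss of a Csf1r copy among mice that already lacked a Csf2 copy is measured by Dhet against Csf2_het, which shares no library with Csf1r_het against WT. With limma 0 of the 10 genes passed, where 0.0227% of all genes did, and edgeR and DESeq2 called 0 as well. At an unadjusted p under 0.05 there were 3, Gsta4, Gpx4 and Txnrd1, all lower in Dhet, where 8.19% of all genes were under 0.05 in either direction. In this comparison 7 of the 10 genes lay in both Dhet libraries below all Csf2_het libraries, where 12.9% of all genes did, and 0 of the 10 lay wholly above, where 16.7% did. The 7 were Gstm2 (-0.67 ± 0.57), Gsta4 (-1.59 ± 0.48), Gpx4 (-0.79 ± 0.36), Nqo1 (-0.81 ± 0.65), Prdx1 (-0.46 ± 0.32), Sod1 (-1.14 ± 0.58) and Txnrd1 (-0.98 ± 0.43), with limma adjusted p-values between 0.410 and 0.802. The median difference of the 10 genes was -0.73, and that of all genes was 0.03.

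Several of the 10 genes ran in step from library to library, which is given over 11 libraries that share the group differences above. Pearson's r of the log2 values was 0.96 for Gsta4 and Prdx1, 0.93 for Gsta4 and Gpx4, 0.88 for Gpx4 and Prdx1 and 0.88 for Gstm2 and Prdx1. Gpx1 ran against Nqo1, with r = -0.73. Gstm1 and Gstm2 had r = 0.45.

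Among 10838 genes with a mean of at least 50 normalized counts, the gene most like Gsta4 over the 11 libraries was Folr1 (r = 0.97, Spearman's rho = 0.95), a folate receptor and marker of the choroid plexus, followed by the mitochondrial genes Eci1 (r = 0.96) and Chchd6 (r = 0.95). The genes most like Gstm2 were Arhgdig (r = 0.99), Map1lc3a (r = 0.95) and Spp1 (r = 0.95). For Gstm1 they were Clip3 (r = 0.87), Ltbp3 (r = 0.85) and Ppm1f (r = 0.84).

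Folr1 had 12613, 7222 and 12371 normalized counts in Csf1r_het libraries, 2386 and 4339 in Dhet, 7305, 8750 and 5635 in Csf2_het, and 4272, 1567 and 3610 in WT libraries, so the single heterozygous groups lay above the others as they did for Gsta4. Other choroid plexus markers did not all have this order. Of the 10 markers 4 lay wholly above WT in Csf1r_het and 4 in Csf2_het, where 1139 and 1449 of all 13223 genes did. Aqp1 had 352, 138 and 325 normalized counts in Csf1r_het libraries, against 676, 135 and 606 in WT libraries. Enpp2 was highest in Dhet replicate 2, at 180661. All 10 choroid plexus markers were present in every library, and their summed level, most of it Ttr, was 897876 to 1595120 normalized counts in Csf1r_het, 286716 to 642238 in Dhet, 927840 to 1217680 in Csf2_het and 435752 to 700592 in WT libraries. Over the 11 libraries this sum had r = 0.90 with Gpx4, 0.81 with Gsta4 and 0.78 with Prdx1. With Gstm2 it had r = 0.48 and Spearman's rho = 0.73. For the 6 ependymal and ciliated-cell markers in the table the sum was 2341 to 5249 in Csf1r_het, 1443 to 2146 in Dhet, 2900 to 3395 in Csf2_het and 760 to 1491 in WT libraries, and Rarres2 was at 0 in some libraries. This sum had r = 0.92 with Gsta4, 0.91 with Gpx4, 0.89 with Prdx1, 0.84 with Gstm2 and 0.81 with Nqo1. Other sums tracked these genes too. The microglia sum had r = 0.57, 0.49, 0.59, 0.71 and 0.74 with them in that order, and Spearman's rho of 0.23 to 0.54. The monocyte sum had r = -0.70, -0.62, -0.64, -0.66 and -0.74. The part of choroid plexus, ependymal, microglial or monocyte RNA in the differences of Gsta4, Gpx4, Prdx1, Gstm2 and Nqo1 was not tested.

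**Figure D3:**
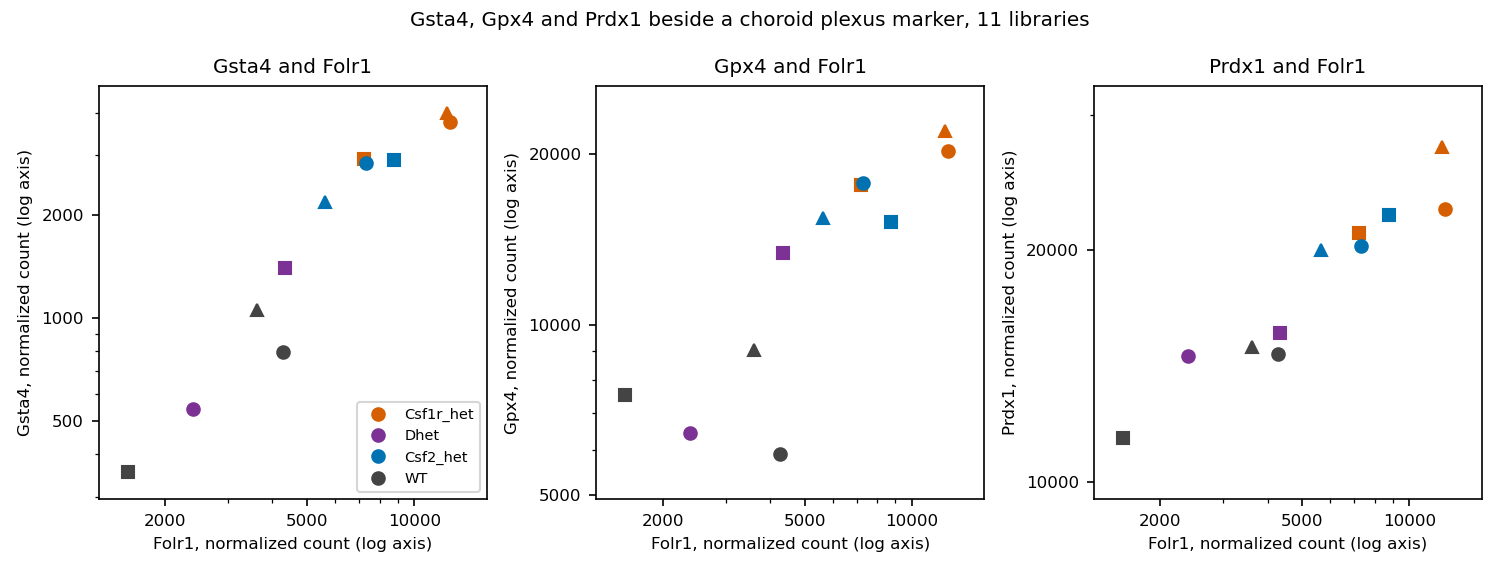
Gsta4, Gpx4 and Prdx1 against the choroid plexus marker Folr1 in 11 libraries, normalized counts on log axes; colours are groups, and circles, squares and triangles are replicates 1, 2 and 3. Gsta4 and Folr1 climb together (r = 0.97), with WT and Dhet libraries at the low end and both single heterozygous groups at the high end.

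The wider pathway was read from 77 further genes, of which 69 were tested. Csf2_het against WT called 9 of the 69, 3 higher and 6 lower, where 0.809% of all genes were called higher and 2.84% lower. The median of the 69 genes was -0.02, the same as that of all genes. In Csf1r_het against WT, 1 of the 69 was called higher, Gstm5, and 3 lower, Gsr, G6pdx and Pgd, where 1.32% of all genes were called in either direction, and this too is a description, since the list was drawn up with results of that comparison known. In Dhet against WT and in Dhet against Csf2_het limma called 0 of the 69. At an unadjusted p under 0.05 there were 6 of the 69 in Dhet against WT, where 10.1% of all genes were, and 15 in Dhet against Csf2_het, where 8.19% were. There edgeR called 0 in both. In Dhet against WT DESeq2 called 2, Bach1 and Gsto1, and 2.54% of all genes, and in Dhet against Csf2_het it called 4, G6pdx, Gsr, Gstk1 and Mgst1, and 1.15% of all genes.

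Gsr, which returns oxidized glutathione to its reduced form, had 3090, 2602 and 1982 normalized counts in Csf1r_het libraries, 3013 and 6843 in Dhet, 1840, 1844 and 1206 in Csf2_het, and 14683, 7857 and 11630 in WT libraries. Every heterozygous library lay below every WT library. Gsr fell by 2.78 ± 0.36 on the log2 scale in Csf2_het (6.89-fold lower, limma adjusted p = 0.00124), and its difference was -2.13 ± 0.36 in Csf1r_het and -1.28 ± 0.41 in Dhet (limma adjusted p = 0.295). Both Dhet libraries lay above all Csf2_het libraries, a 2.84-fold higher level (limma adjusted p = 0.339).

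The pentose phosphate pathway makes the NADPH that Gsr and Txnrd1 use. Of its genes 3 fell in Csf2_het, G6pdx, Tkt and Taldo1, where 2.84% of all genes were called lower. G6pdx, its entry enzyme, had 1616, 1095 and 1510 normalized counts in Csf1r_het libraries, 2384 and 3627 in Dhet, 1182, 605 and 976 in Csf2_het, and 6815, 4421 and 7425 in WT libraries. G6pdx fell by 2.77 ± 0.34 in Csf2_het (6.84-fold lower, limma adjusted p = 0.000876), and its difference from WT was -2.13 ± 0.34 in Csf1r_het and -1.05 ± 0.38 in Dhet (limma adjusted p = 0.372). The calls of Gsr and G6pdx in Csf2_het held under all alternatives run, including each library left out. Of the 31-base words of G6pdx, 23.6% occur in other genes, among them G6pd2.

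Further along that pathway, Tkt (transketolase) had 2352, 2274 and 1510 normalized counts in Csf2_het libraries, against 7928, 4979 and 5625 in WT libraries, and fell by 1.59 ± 0.29 (limma adjusted p = 0.00964). Taldo1 (transaldolase) had 5261, 5882 and 5303 in Csf2_het libraries, against 12152, 21326 and 10391 in WT libraries, and fell by 1.35 ± 0.30 (limma adjusted p = 0.0279; edgeR adjusted p = 0.0541). The call of Tkt was lost without WT replicate 1 (limma adjusted p = 0.0566) or Csf2_het replicate 3 (0.0508), and that of Taldo1 without WT replicate 1, Csf1r_het replicate 3 or any Csf2_het replicate (0.0505 to 0.117). Pgd, the third enzyme of the oxidative branch, was chosen after its values were seen, and was 3.03-fold lower in Csf1r_het, 1.01-fold lower in Dhet and 2.01-fold lower in Csf2_het than in WT (limma adjusted p = 0.0940 for Csf2_het).

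**Figure D4:**
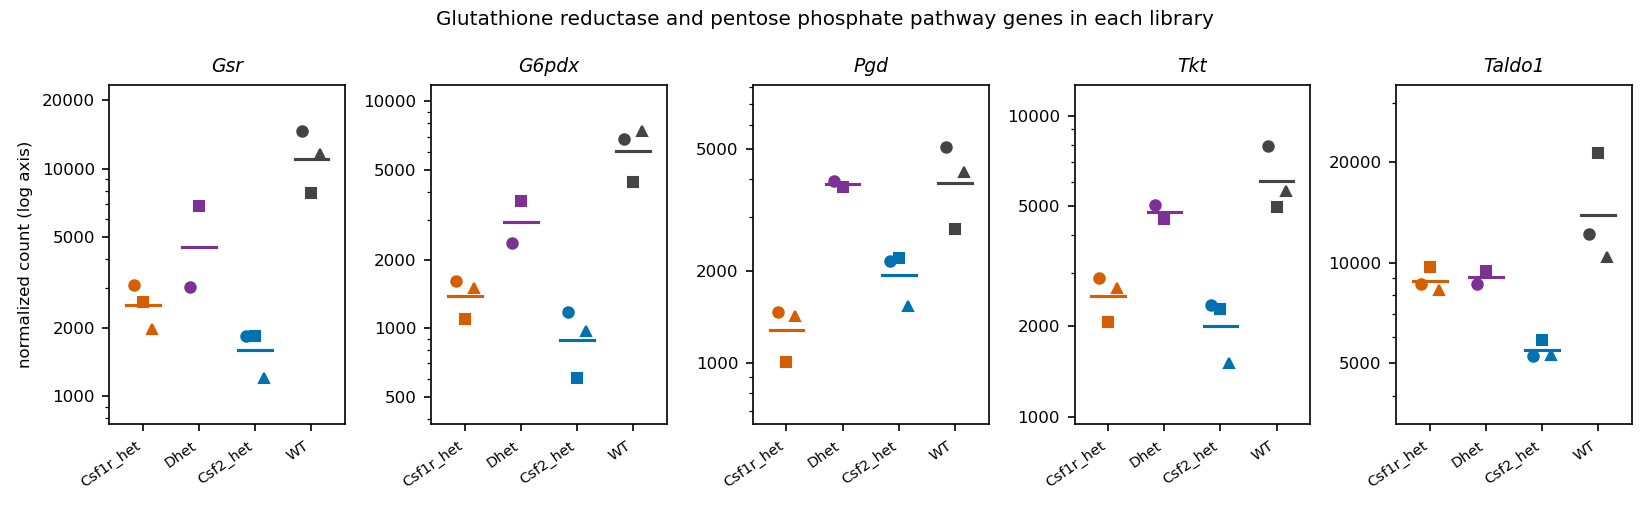
Normalized counts of glutathione reductase (Gsr) and of the pentose phosphate genes G6pdx, Pgd, Tkt and Taldo1 in each library, on log axes, by group; lines are geometric means, and circles, squares and triangles are replicates 1, 2 and 3. G6pdx was 605 to 1182 in Csf2_het and 4421 to 7425 in WT libraries, with Dhet libraries between, at 2384 and 3627.

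Monocyte markers also differed between groups. Their summed level over 8 of 8 markers in the table was 50788 to 60054 normalized counts in Csf1r_het, 62576 to 74276 in Dhet, 16626 to 24755 in Csf2_het and 74428 to 155738 in WT libraries, with Vcan at 0 in some libraries. Within WT the highest sum, 155738, was in replicate 2. That library was lowest of WT in Gsr (7857), G6pdx (4421) and Tkt (4979), and highest in Taldo1 (21326). In Csf2_het limma called 6 of the 8 markers lower than in WT, among them Vcan, Ccr2 and Plac8, where 2.84% of all genes were. Cd14 went the other way, with 4975, 5782 and 4526 normalized counts in Csf2_het libraries, against 3644, 1094 and 3911 in WT libraries (1.02 ± 0.44, limma adjusted p = 0.247). The part of monocyte RNA in the lower Gsr and pentose phosphate counts was not tested.

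Among 16 tested transferases outside the 10 genes, 1 rose and 2 fell in Csf2_het, where 0.809% of all genes were called higher and 2.84% lower. Gstm5, another mu-class gene, had 3896, 4202 and 3565 normalized counts in Csf1r_het libraries, 1397 and 1904 in Dhet, 5050, 2428 and 3037 in Csf2_het, and 1001, 560 and 1659 in WT libraries, with both single heterozygous groups wholly above WT. It rose by 1.77 ± 0.39 in Csf2_het (limma adjusted p = 0.0265), and 11.1% of its 31-base words occur in another gene. Mgst1, a microsomal transferase, had 1531, 1903 and 1875 in Csf2_het libraries, against 4950, 5348 and 4432 in WT libraries, and fell by 1.47 ± 0.28 (limma adjusted p = 0.0123). Gsto1, an omega-class transferase, fell by 1.59 ± 0.35 in Csf2_het (limma adjusted p = 0.0272) and differed by -1.48 ± 0.40 in Dhet (limma adjusted p = 0.176; DESeq2 adjusted p = 0.0279). The call of Gstm5 was lost without WT replicate 1 (limma adjusted p = 0.0952), Csf2_het replicate 1 (0.128) or Csf2_het replicate 3 (0.0740), and that of Mgst1 without WT replicate 1 (0.0550) or Csf2_het replicate 1 (0.0757). Gsto1 lost its call without WT replicate 1 (0.123), WT replicate 2 (0.0544), Csf2_het replicate 1 (0.128) or Csf2_het replicate 2 (0.108).

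Of 11 other peroxidases and dismutases 1 rose in Csf2_het, Gpx8, where 0.809% of all genes were called higher. Gpx8, a peroxidase of the endoplasmic reticulum, had 1516, 2687 and 1342 normalized counts in Csf2_het libraries, against 423, 313 and 713 in WT libraries (1.95 ± 0.46, limma adjusted p = 0.0358). Cbr1, a carbonyl reductase that was chosen after its values were seen, rose by 1.47 ± 0.33 (limma adjusted p = 0.0287). The call of Gpx8 was lost when any library but WT replicate 3, Csf1r_het replicate 2 or Csf1r_het replicate 3 was left out (limma adjusted p = 0.0502 to 0.155), and that of Cbr1 without WT replicate 1 or any Csf2_het replicate (0.0719 to 0.120). Of 8 thioredoxin and thiol-repair genes limma called none, with 1 at an unadjusted p under 0.05, where 17.3% of all genes were. It was Msra, a methionine sulfoxide reductase (-0.92 ± 0.33, limma adjusted p = 0.168). There DESeq2 called Txn1, where it called 8.61% of all genes, and edgeR called none.

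Among the regulators of the pathway, limma called none of the 6 tested NRF2 control genes in any of the 4 comparisons. At an unadjusted p under 0.05 there was 1 of the 6 in Csf2_het against WT, where 17.3% of all genes were. There was 1 in Dhet against WT, where 10.1% were, and 1 in Dhet against Csf2_het, where 8.19% were. With DESeq2, Bach1 was called in Dhet against WT, where 2.54% of all genes were. Nfe2l2 was called by DESeq2 in Csf1r_het against WT, where 5.41% of all genes were. That call is a description, since the list was drawn up with results of that comparison known. Nfe2l2 had 3404, 2723 and 3303 normalized counts in Csf1r_het libraries, 5196 and 3323 in Dhet, 3277, 4049 and 4628 in Csf2_het, and 5751, 10971 and 5226 in WT libraries, so it was below WT in every heterozygous library, with the highest level in WT replicate 2. Its difference in Csf2_het was -0.81 ± 0.33 (limma adjusted p = 0.216), and -0.47 without WT replicate 2. Bach1, a repressor that competes with NRF2 for the same elements, had 451 and 282 normalized counts in Dhet libraries, against 1306, 2209 and 925 in WT libraries (-1.96 ± 0.45, limma adjusted p = 0.107; DESeq2 adjusted p = 0.00507). Of 6 tested NRF2 control genes 5 had a negative difference in Csf2_het, with a median of -0.73, and none was called. Of all 13223 genes tested 6764 had a negative difference there, with a median of -0.02.

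NRF2 binds a DNA word, TGACNNNGC, which was looked for on both strands in the 250 bases before the annotated starts (RefSeq, GRCm38.p6), since several of the 10 genes move together. Promoters were matched for 8 of the 10 genes, all but Gsta4 and Hmox1. The word occurred in 3 of their 14 windows (21.4%), in 14 of 91 windows of the wider pathway (15.4%) and in 10.2% of all 32851 windows. The windows that held it belong to Prdx1, Txnrd1 and Sod1, and 36 bases on each side are shown with the word in capitals, which in each case reads in reverse (GCNNNGTCA).
Prdx1, chr4:116685430-116685510, plus strand, 133 bases before the start: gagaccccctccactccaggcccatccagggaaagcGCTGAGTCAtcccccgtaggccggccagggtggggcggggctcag
Txnrd1, chr10:82859078-82859158, plus strand, 92 bases before 1 of its starts: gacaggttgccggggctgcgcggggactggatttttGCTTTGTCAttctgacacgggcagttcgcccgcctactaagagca
Sod1, chr16:90220670-90220750, plus strand, 56 bases before the start: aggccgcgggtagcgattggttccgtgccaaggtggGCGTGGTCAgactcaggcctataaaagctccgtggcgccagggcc
These genes did not share a pattern across the groups: against WT in Csf2_het, Prdx1 differed by 0.62, Txnrd1 by -0.68 and Sod1 by 0.51, while in Dhet against Csf2_het all 3 were lower. The word is a match of letters and was not measured as a bound site.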

How the data were processed

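The deposited values are a signal that the authors made with kallisto 0.43.1 on mm10 and DESeq2, per the submitters' processing notes, which name no DESeq2 version. Each library's values step by 1 fixed amount, and divided by it 100% came out as whole reads within 0.02. They are normalized counts, in which 1 read was worth 0.479 to 1.48 normalized counts. Of the deposited identifiers 14723 matched GENCODE vM21.

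The 1516 genes with a mean normalized count under 10 were left out. A limma fit (3.58.1, trended prior, R 4.3.3, 7 residual degrees of freedom) of log2(normalized count + 1) covered all 11 libraries and 4 groups, with Benjamini-Hochberg adjustment over all 13223 genes and a threshold of 0.05. The pseudocount of 1 understates folds of low genes. Nothing says that samples of a group came from separate preparations, so p-values measure the spread between these libraries.

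The genes and lists were chosen with earlier results of these data known. Wider genes were named as the 3 called genes of lowest p per list and comparison outside Csf1r_het against WT, or the 1 of lowest p where none was called, and likeness as the 3 genes of highest r. The 31-base words were counted over GENCODE vM21 transcripts. Alternatives were edgeR 4.0.16 and DESeq2 1.42.0 on recovered reads, a pseudocount of 8, no filter, scaling to reads outside 8 haemoglobin genes, median centring, a replicate block, only the groups compared, the 21-month libraries alone and each library left out. The fit was tested on simulated data.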

Additional observations from a re-analysis of the deposited data

Results flagged for a closer look

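The effect of losing a Csf1r copy differed between mice with a single Csf2 copy (Dhet against Csf2_het) and mice with both (Csf1r_het against WT) for 6 of the 69 tested genes of the wider pathway, by a limma test of the difference itself, where 1.85% of all 13223 genes passed the same test. The 6 are all of the 69 that passed. This test takes in Csf1r_het against WT, and the list was drawn up with results of that comparison known. Gstm5, Gsr, G6pdx and Pgd were also called in that comparison. The count and the p-values given here are therefore a description. For G6pdx the difference of the effects was 3.86 ± 0.51 on the log2 scale (SE, limma adjusted p = 0.00687), and for Gsr it was 3.64 ± 0.55 (limma adjusted p = 0.00874). Tkt gave 2.53 ± 0.44 (limma adjusted p = 0.0159) and Pgd 2.59 ± 0.46 (limma adjusted p = 0.0173). Gstm5 gave -3.02 ± 0.59 (limma adjusted p = 0.0249) and Gstk1, a mitochondrial and peroxisomal transferase, gave -2.87 ± 0.56 (limma adjusted p = 0.0251). Without Dhet replicate 1 the limma adjusted p was 0.0748 for Tkt, 0.0764 for Pgd, 0.118 for Gstm5 and 0.111 for Gstk1, and without WT replicate 1 it was 0.0530 for Pgd, 0.0617 for Gstm5 and 0.0542 for Gstk1. Gstm5 and Gstk1 also missed the threshold without Csf1r_het replicate 1 or 3 or Csf2_het replicate 1 or 3, and Gstk1 without Csf2_het replicate 2, while G6pdx and Gsr passed with each library left out. With the 21-month libraries alone none of the 6 passed (limma adjusted p = 0.136 for G6pdx and Gsr, 0.139 to 0.215 for the others), nor did any other gene of the table in that limma fit, where 13.3% of all genes had an unadjusted p under 0.05. With the replicate block G6pdx alone of the 6 passed (limma adjusted p = 0.0519 for Gsr, 0.0555 to 0.0747 for the others), and with scaling to reads outside haemoglobin genes Tkt, Pgd, Gstm5 and Gstk1 did not (0.0562 to 0.109). The monocyte sums were higher in Dhet than in Csf2_het libraries and lower in Csf1r_het than in WT libraries. The sum of 6 neutrophil markers was 621511 to 683013 normalized counts in Dhet and 107490 to 189981 in Csf2_het libraries. It was 25450 to 436793 in Csf1r_het and 39717 to 718671 in WT libraries, which overlapped. The part of monocyte or neutrophil RNA in these values was not tested.

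For Gsta4 and Gpx4 the same quantity was -3.99 ± 0.65 and -2.22 ± 0.49, given with no p because the choice of these genes used libraries of that contrast. Both genes were higher in Csf1r_het than in WT libraries and lower in Dhet than in Csf2_het libraries.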

How the results depend on the processing

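Counts of calls moved with the test more than the differences did. Of the 10 genes, limma called 2 in Csf1r_het, a count that describes their choice and is no test result, and 4 were called by DESeq2, 0 with scaling to reads outside haemoglobin genes, 0 with the replicate block, 0 with only the groups compared, 0 with the 21-month libraries alone and 0 to 3 with single libraries left out. The whole table moved too: of all 13223 genes limma called 174 there, DESeq2 716, the replicate block 28, and the fits with haemoglobin scaling, only the groups compared or the 21-month libraries 0. In Csf2_het the call of 1 became 3 with DESeq2, 2 with a pseudocount of 8, 2 with median centring, 0 with haemoglobin scaling, the replicate block, only the groups compared or the 21-month libraries, and 0 to 2 with libraries left out. In Dhet against WT the 0 became 1 with DESeq2 and stayed 0 with each library left out. Of the wider 69 genes, the 4 called in Csf1r_het became 12 with DESeq2, 0 with haemoglobin scaling, 1 with the replicate block, 0 with only the groups compared, 0 with the 21-month libraries and 0 to 6 with libraries left out. The 9 called in Csf2_het became 4 with haemoglobin scaling, 4 with the replicate block, 4 with only the groups compared, 3 with the 21-month libraries and 2 to 10 with libraries left out. The whole table also moved in Csf2_het against WT, where limma called 3.65% of all genes and DESeq2 8.61%. The share was 2.06% with haemoglobin scaling, 1.94% with the replicate block, 1.96% with only the groups compared and 1.89% with the 21-month libraries. DESeq2 called 2 in Dhet against WT and 4 in Dhet against Csf2_het, where leaving out libraries gave 0 to 1. The 8 genes whose Csf1r effect differed by Csf2 copy number, among them Gsta4 and Gpx4, whose choice used libraries of that contrast, became 14 with DESeq2, 2 with haemoglobin scaling, 1 with the replicate block, 0 with the 21-month libraries and 2 to 15 with libraries left out, where all genes called numbered 244 with limma, 908 with DESeq2, 74 with haemoglobin scaling, 14 with the block and 0 with the 21-month libraries. The counts of 15 came without WT replicate 2 and of 2 without Dhet replicate 1. Some refits also held fewer libraries, and the cause of these moves was not tested.

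Signs turned where differences were small. Gstm1 in Csf2_het was 0.027 with edgeR and -0.61 to 0.13 with libraries left out. With the 21-month libraries alone, Dhet against WT gave -0.036 for Gstm1, -0.30 for Gsta4, -0.19 for Gpx4 and 0.24 for Hmox1. Gpx1 in Dhet against Csf2_het was -0.11 with edgeR, -0.068 with DESeq2 and -0.076 with median centring. With single libraries left out, Dhet against WT ran from -0.13 to 0.43 for Gstm1, -0.30 to 1.07 for Gsta4, -0.19 to 0.86 for Gpx4, -1.14 to 0.24 for Hmox1, -0.024 to 1.27 for Nqo1 and -1.11 to 0.11 for Sod1, and Dhet against Csf2_het from -0.16 to 0.28 for Gpx1 and -0.22 to 1.04 for Hmox1.

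Same-numbered replicates did not deviate together (correlations of -0.21 to 0.06 over 15 pairs of libraries, -0.20 to 0.31 over 30 pairs with different numbers), so the numbers were not taken as pairs. With the replicate block the limma adjusted p of Gsta4 in Csf2_het was 0.0596. Scaling to reads outside haemoglobin genes moved the median of all genes to 0.23 in Dhet against WT and 0.25 in Dhet against Csf2_het. At 2 or 3 libraries a group, small differences could not be told from the spread.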
